A study of Homo sapiens with 11 samples.

Results

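The MYC family and its partners are transcription factors that work in pairs, and their messenger RNA was followed here in small cell lung carcinoma and lung fibroblast lines. The members were taken by gene symbol from the deposited expression tables and are MYC, MYCL, MYCN, MAX, MXI1, MXD1, MXD3, MXD4, MNT and MGA, 10 of 57815 listed genes. For MYC, MYCL and MYCN the chromatin domains that hold the gene were read as well. The tumour type is represented by DMS153 and H209, 2 established carcinoma lines, and the comparison line is MRC5, lung fibroblasts that are not cancerous; all were grown in the same medium and no treatment is named. RNA-seq covered DMS153 with 3 libraries, H209 with 2 and MRC5 with 3. Hi-C, which maps contacts between distant parts of the genome, covered 1 library per line. A fibroblast is not the cell type that small cell carcinoma resembles, so tumour state and cell type cannot be told apart in comparisons with MRC5. Replicates are numbered in the labels, but separate cultures are not stated, so each p-value reflects the spread of these libraries alone, and that spread may be technical.

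MYC, MYCL and MYCN share a basic helix-loop-helix leucine zipper that pairs with the same region of MAX, and the pairs bind the E-box CACGTG and mostly raise transcription of genes for growth and ribosome production. MXI1, MXD1, MXD3, MXD4 and MNT compete for MAX and recruit the SIN3 and histone deacetylase corepressors to the same sites, while MGA ties MAX to a Polycomb complex. In small cell lung carcinoma the 3 MYC family genes are known as recurrently amplified oncogenes, usually one at a time, and different members go with different tumour subtypes.

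Because these proteins bind the E-box, and some of their own genes are known to carry it, the 250 bases before the annotated start of each member were searched for CACGTG, a palindrome that reads the same on both strands. Sequences were taken from RefSeq (GRCh38.p14), which had an entry used here for 9 members, all but MYC. MXD4 and MNT held 1 box each, whose first base lay 238 and 193 bases before the start, and the other 7 held none in this window. Of all 34961 promoter windows 6.35% held the box, and of all 27195 genes with a window 7.74% did. The 4 sequences below are those of the members with the box, MXD4 and MNT, and of MYCL and MXD3. Both MYCL and MXD3 were called higher in both carcinoma lines, as was MGA, whose windows are not shown. The box is in capitals, and the sequences run 5′ to 3′ on the strand of the gene.
MXD4, chr4:2262110-2262359, minus strand: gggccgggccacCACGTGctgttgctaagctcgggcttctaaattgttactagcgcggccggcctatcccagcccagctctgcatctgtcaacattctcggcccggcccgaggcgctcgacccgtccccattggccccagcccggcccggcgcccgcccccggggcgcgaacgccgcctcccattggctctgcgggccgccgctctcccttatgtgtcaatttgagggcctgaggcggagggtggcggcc
MNT, chr17:2401061-2401310, minus strand: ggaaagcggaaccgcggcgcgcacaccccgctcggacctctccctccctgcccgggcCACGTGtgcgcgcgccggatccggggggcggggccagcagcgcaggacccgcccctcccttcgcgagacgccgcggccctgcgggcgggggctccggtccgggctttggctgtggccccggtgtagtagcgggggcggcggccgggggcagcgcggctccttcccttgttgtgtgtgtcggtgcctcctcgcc
MYCL, chr1:39901918-39902167, minus strand: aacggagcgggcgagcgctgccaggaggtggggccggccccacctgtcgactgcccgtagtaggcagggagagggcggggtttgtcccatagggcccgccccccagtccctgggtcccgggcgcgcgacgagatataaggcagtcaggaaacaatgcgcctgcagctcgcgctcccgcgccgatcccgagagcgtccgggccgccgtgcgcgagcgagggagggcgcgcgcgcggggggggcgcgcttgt
MXD3, chr5:177312753-177313002, minus strand: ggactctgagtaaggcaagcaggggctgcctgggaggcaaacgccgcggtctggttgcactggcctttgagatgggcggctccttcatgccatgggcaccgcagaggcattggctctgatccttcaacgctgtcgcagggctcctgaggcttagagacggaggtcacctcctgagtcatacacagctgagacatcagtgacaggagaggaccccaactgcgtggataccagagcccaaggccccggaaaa
These windows were rich in G and C, with 60.4% of bases in MXD3 and 78.0% in MNT. A match of 6 letters is a description and not a measured binding site, and none of the deposited files used here measures binding.

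Expression is given in FPKM, a fragment count divided by transcript length and by library size, so levels of different genes can be set side by side per length. The DMS153 libraries had 16462 to 16580 genes at 1 FPKM or more, those of H209 15963 and 16053, and those of MRC5 13425 to 13560. Depth, read from the steps of low values, was 0.953 to 1.66 times that of MRC5 replicate 1, and for genes of 1 to 10 FPKM the deposited interval bounds lay a median of 10.6% to 13.6% away from the value. Small RNA and mitochondrial loci held 46.3% to 48.9% of summed FPKM in DMS153, 12.9% and 13.3% in H209 and 11.3% to 12.6% in MRC5, and their part in the levels below was tested only by rescaling. The lines carried the markers of their labels. Neuroendocrine markers (5 genes) summed to 820 to 887 FPKM in DMS153, 962 and 966 in H209 and at most 0.166 in MRC5, lung epithelium markers (3 genes) to 536 to 577, 417 and 422, and at most 0.163, and fibroblast markers (5 genes) to 6.98 to 8.57, 2.98 and 2.99, and 6844 to 7572. Blood markers (3 genes) summed to at most 1.61 FPKM in any library and the endothelial marker matched to at most 0.184.

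The leading MYC family gene differed between the carcinoma lines and the fibroblasts. MYCL led in both carcinoma lines, MYC led in the fibroblasts, and MYCN stayed under 1 FPKM throughout. Members were tested with limma on log2(FPKM + 1) over 19066 genes in all, and calls required a Benjamini-Hochberg adjusted p under 0.05 and a log2 fold change of 1 or more in size. Such fold changes understate those of low genes, and in cultures measured in bulk, fewer expressing cells and less RNA per cell cannot be told apart.

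MYC (ENSG00000136997.10, chromosome 8, 128747680 to 128753674 in hg19), the founding oncogene of the family, had 2.79, 2.30 and 3.46 FPKM in the DMS153 libraries, 0.142 and 0.0751 in the H209 libraries, and 29.4, 33.4 and 30.4 in the MRC5 libraries. The fibroblasts stood above every carcinoma library, DMS153 stood above H209, and no 2 lines overlapped. The mean was 2.85 ± 0.584 FPKM in DMS153 (SD, n = 3) and 0.108 ± 0.0471 in H209 (n = 2), against 31.1 ± 2.07 in MRC5 (n = 3). On the log2 scale MYC fell by 3.07 ± 0.11 in DMS153 relative to MRC5 (SE, limma, Benjamini-Hochberg adjusted p = 7.65e-09), and in H209 it fell by 4.85 ± 0.13 (adjusted p = 1.22e-09). DMS153 exceeded H209 by 1.79 ± 0.13 (limma adjusted p = 2.05e-06), and the ratio of their mean FPKM was 26.3. This last change is 0.62 and not called with a pseudocount of 5, and 3.82 with 0.1, and the value in H209 against MRC5 is -2.82 with 5. The deposited interval of H209 replicate 2 reaches down to 0.

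MYCL (ENSG00000116990.9, chromosome 1, 40361098 to 40367928), first found amplified in small cell lung carcinoma, had 55.9, 63.9 and 48.3 FPKM in the DMS153 libraries, 149.8 and 155.1 in the H209 libraries, and 0.0718, 0.0659 and 0.0612 in the MRC5 libraries. Both carcinoma lines stood above the fibroblasts and H209 above DMS153, with no overlap. MYCL rose by 5.73 ± 0.10 log2 units in DMS153 relative to MRC5 (limma adjusted p = 5.19e-11) and by 7.17 ± 0.11 in H209 (adjusted p = 5.78e-11). DMS153 was lower than H209 by a log2 fold change of -1.44 ± 0.11 (limma adjusted p = 2.81e-06), with a ratio of mean FPKM of 0.367. All 3 MRC5 intervals include 0, so no ratio to MRC5 is given, and the size of the rise depends on the pseudocount, at 3.58 and 4.96 log2 units with 5 and 8.39 and 9.84 with 0.1. RP1-118J21.5, a gene listed inside MYCL, had 5.14 to 6.73 FPKM in DMS153, 10.2 and 10.5 in H209 and at most 0.0459 in MRC5, and since the strand of the libraries is not given the pair may share reads.

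MYCN (ENSG00000134323.10, chromosome 2, 16080686 to 16087129), the member known from neuroblastoma, had 0.559, 0.794 and 0.693 FPKM in the DMS153 libraries, 0.0191 and 0.0120 in the H209 libraries, and 5.49e-05 in MRC5 replicate 1. It was listed at 0 in the other 2 MRC5 libraries. DMS153 stood above the other lines in every library, but no library reached 1 FPKM, so MYCN did not enter the fit and has no test. Its antisense neighbour MYCNOS stayed at or under 0.0878 FPKM in all libraries.

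**Figure D1:**
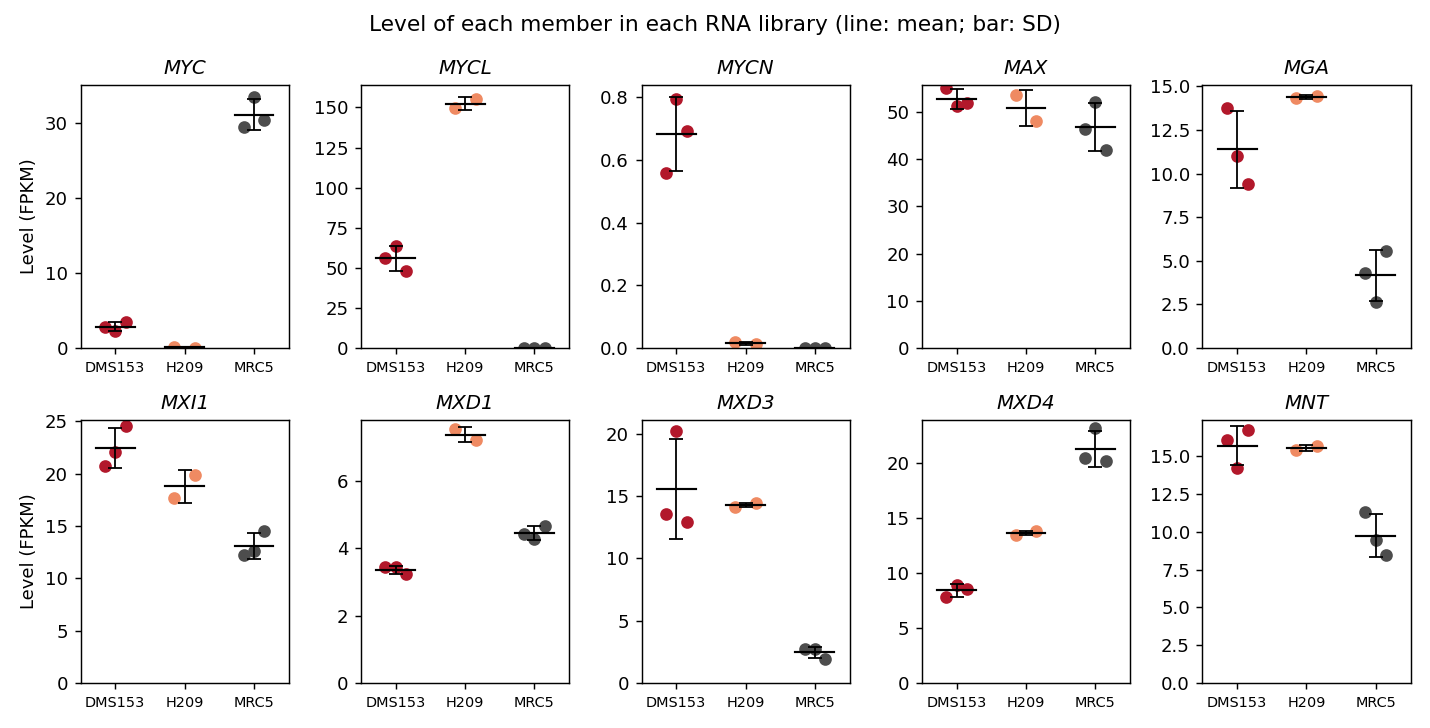
Level in FPKM (vertical axis, linear, from 0) of the 10 members in each RNA library of DMS153, H209 and MRC5, with 1 point per library, the mean as a line and the SD as a bar. MYC is high only in MRC5, at 29.4 to 33.4, MYCL in the carcinoma lines, at 48.3 to 155.1, and MAX overlaps in all 3 lines.

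MAX (ENSG00000125952.14, chromosome 14, 65472892 to 65569413), a partner of all the others, had the smallest fitted changes against MRC5 of the 9 tested members. Its levels were 55.0, 51.2 and 51.9 FPKM in the DMS153 libraries, 53.5 and 48.1 in the H209 libraries, and 46.4, 52.1 and 41.9 in the MRC5 libraries. All 3 lines overlapped. The log2 fold change against MRC5 was 0.17 ± 0.09 in DMS153 (limma adjusted p = 0.0860) and 0.12 ± 0.10 in H209 (adjusted p = 0.272), and it was 0.05 ± 0.10 in DMS153 against H209 (adjusted p = 0.640). These values turn to -0.45 and -0.62 against MRC5 when libraries are scaled by median ratios, and to -0.59 in DMS153 against H209 when they are scaled as TPM, so the direction of MAX depends on the scaling. FNTB, which overlaps MAX over 56477 bases, had 8.16 to 8.83 FPKM in DMS153, 15.6 and 16.3 in H209 and 5.58 to 5.98 in MRC5.

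Among the MAX partners that recruit corepressors, MXD3 was the one called higher in both carcinoma lines, and MXD4 the one called lower, in DMS153. MXD3 (ENSG00000213347.6, chromosome 5, 176728462 to 176739758), known from the mouse as a family member of dividing cells, had 13.6, 20.2 and 12.9 FPKM in the DMS153 libraries, 14.2 and 14.4 in the H209 libraries, and 2.69, 2.72 and 1.91 in the MRC5 libraries. Every carcinoma library stood above every fibroblast library, and the carcinoma lines overlapped. MXD3 rose by 2.25 ± 0.16 log2 units in DMS153 (limma adjusted p = 9.18e-07) and by 2.16 ± 0.18 in H209 (adjusted p = 3.22e-06), relative to MRC5, and by 1.45 and 1.38 with a pseudocount of 5. Both protein-coding genes that overlap it ran the other way, PRELID1 with 29.8 to 32.0 FPKM in DMS153, 36.5 and 41.9 in H209 and 74.5 to 90.6 in MRC5, and RAB24 with 4.00 to 4.87, 6.27 and 7.66, and 14.7 to 17.2 FPKM.

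MXD4 (ENSG00000123933.10, chromosome 4, 2249159 to 2264021), known from the mouse as a member of cells that stop dividing, had 7.77, 8.85 and 8.56 FPKM in the DMS153 libraries, 13.5 and 13.7 in the H209 libraries, and 20.4, 23.1 and 20.1 in the MRC5 libraries. The lines fell in the order DMS153, H209 and MRC5 from low to high, with no overlap. MXD4 fell by 1.24 ± 0.08 log2 units in DMS153 relative to MRC5 (limma adjusted p = 2.94e-07). In H209 its log2 fold change was -0.60 ± 0.09 (adjusted p = 0.000132), short of the fold required for a call, and between DMS153 and H209 it was -0.64 ± 0.09 (adjusted p = 0.000138). The call in DMS153 ends at -0.95 when libraries are rescaled without small RNA and mitochondrial genes and at -0.97 with a pseudocount of 5. Under median ratio scaling the value in H209 becomes -1.32 and is called, and with TPM scaling that of DMS153 against H209 becomes -1.27 and is called.

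MXI1 (ENSG00000119950.16, chromosome 10, 111967363 to 112047123), an antagonist also named MXD2, was the most abundant of these partners in the carcinoma lines. It had 20.8, 22.1 and 24.5 FPKM in the DMS153 libraries, 17.7 and 19.9 in the H209 libraries, and 12.2, 12.6 and 14.5 in the MRC5 libraries. As deposited, DMS153 was highest, H209 next and MRC5 lowest, with no overlap. Its log2 fold change was 0.74 ± 0.09 in DMS153 against MRC5 (limma adjusted p = 4.39e-05) and 0.49 ± 0.10 in H209 (adjusted p = 0.00154), neither of them called. The first is called at 1.03 after rescaling that leaves small RNA and mitochondrial loci out, but is 0.14 (adjusted p = 0.194) with median ratio scaling and 0.33 with TPM scaling, and the second turns to -0.22 under median ratio scaling. The order of the carcinoma lines also depends on the scaling, with 0.24 ± 0.10 in DMS153 against H209 as deposited (adjusted p = 0.0553) and -0.38 with TPM scaling (adjusted p = 0.00613).

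MNT (ENSG00000070444.10, chromosome 17, 2287354 to 2304412), a broadly expressed antagonist, had 16.1, 14.2 and 16.7 FPKM in the DMS153 libraries, 15.4 and 15.7 in the H209 libraries, and 11.3, 9.43 and 8.49 in the MRC5 libraries. The carcinoma lines overlapped each other and stood above the fibroblasts. The log2 fold change was 0.64 ± 0.10 in DMS153 against MRC5 (limma adjusted p = 0.000279) and 0.63 ± 0.12 in H209 (adjusted p = 0.000696), not called. Under median ratio scaling these become 0.05 (adjusted p = 0.646) and -0.07 (adjusted p = 0.599), and in DMS153 against H209 the value is 0.01 as deposited and -0.62 with TPM scaling (adjusted p = 0.00196). Its overlapping neighbour RP1-59D14.1 had 6.53 to 9.38 FPKM over all libraries.

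MXD1 (ENSG00000059728.6, chromosome 2, 70124820 to 70170077), an antagonist that rises as many cell types differentiate, had 3.43, 3.43 and 3.23 FPKM in the DMS153 libraries, 7.53 and 7.21 in the H209 libraries, and 4.41, 4.27 and 4.67 in the MRC5 libraries. DMS153 was lowest and H209 highest, with no overlap. The log2 fold change was -0.32 ± 0.07 in DMS153 against MRC5 (limma adjusted p = 0.00180), 0.62 ± 0.08 in H209 against MRC5 (adjusted p = 5.11e-05) and -0.94 ± 0.08 in DMS153 against H209 (adjusted p = 5.28e-06), none of them called. The last passes the fold required at -1.11 with a pseudocount of 0.1, at -1.57 with TPM scaling and at -1.03 after quantile normalization, and the one in H209 turns to -0.03 under median ratio scaling. SNRNP27, which overlaps MXD1, had 41.8 to 52.3 FPKM over all libraries.

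MGA (ENSG00000174197.12, chromosome 15, 41913422 to 42062141), a large MAX partner that is recurrently mutated in lung cancer, had 13.8, 11.03 and 9.41 FPKM in the DMS153 libraries, 14.3 and 14.5 in the H209 libraries, and 4.33, 2.66 and 5.57 in the MRC5 libraries. The carcinoma libraries stood above the fibroblast libraries, and H209 stood above DMS153. The value of H209 replicate 1 carries a failed status, with a deposited interval of 0 to 0.710 that does not hold it. It was kept in the fit. MGA rose by 1.28 ± 0.20 log2 units in DMS153 relative to MRC5 (limma adjusted p = 0.000247) and by 1.61 ± 0.23 in H209 (adjusted p = 0.000121), and by 1.62 in H209 without that library. The rise in DMS153 stays significant but drops under the required fold, to 0.74 with median ratio scaling, 0.77 with quantile normalization, 0.84 with a pseudocount of 5 and 0.95 with TPM scaling, and the rise in H209 to 0.95 with median ratio scaling.

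Of the 9 tested members, 3 were called higher and 2 lower in DMS153 than in MRC5, where 34.0% of all genes tested were called higher, 16.4% lower and 50.4% in either direction. In H209 against MRC5, 3 were called higher and 1 lower, beside 33.0%, 14.9% and 47.9% of all genes. In DMS153 against H209, 1 was called higher and 1 lower, beside 13.8%, 13.4% and 27.1%. The libraries of the lines did not overlap for 8 members in DMS153 against MRC5, 8 in H209 against MRC5 and 6 in DMS153 against H209, where 87.3%, 88.1% and 82.3% of all genes did not overlap. The members' counts thus lie near the background. Both comparisons with MRC5 use the same 3 fibroblast libraries. Over all genes tested the median log2 fold change against MRC5 was 0.44 in DMS153 and 0.46 in H209, and relative to that median MXI1 was at 0.30 and 0.03, MNT at 0.20 and 0.17, MAX at -0.26 and -0.34, MXD4 at -1.68 and -1.07, and MGA at 0.85 and 1.15. Of the genes called, 67.5% were higher in DMS153 than in MRC5, and this share is 49.0% with median ratio scaling, 56.1% with TPM scaling and 48.9% after quantile normalization. In H209 against MRC5 it is 68.9%, but 45.3% with median ratio scaling and 51.8% after quantile normalization, and in DMS153 against H209 it is 50.7%, but 22.0% with TPM scaling.

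**Figure D2:**
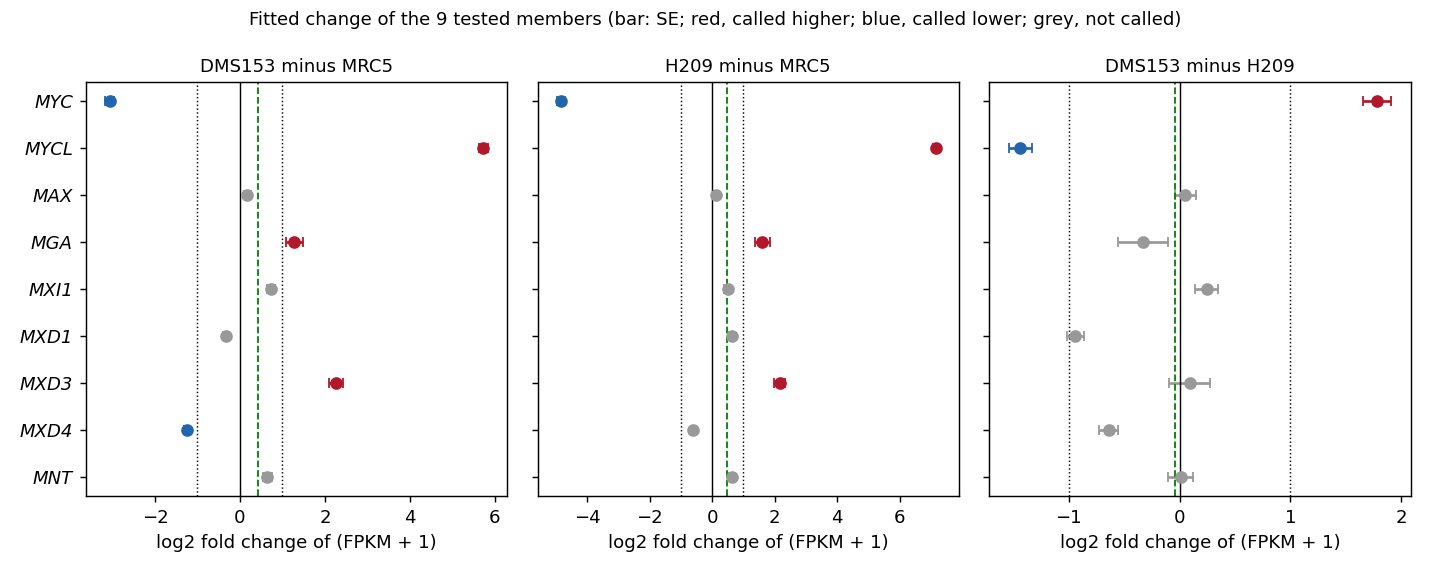
Fitted log2 fold change of FPKM + 1 (horizontal axis) with its SE for the 9 tested members in DMS153 minus MRC5, H209 minus MRC5 and DMS153 minus H209. Dotted lines mark the fold required for a call and green dashes the median of all genes. MYC lies at -3.07 and -4.85 and MYCL at 5.73 and 7.17 against MRC5, far outside the other members.

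Summed over MYC, MYCL and MYCN, the family had 59.5 ± 7.32 FPKM in DMS153 (SD, n = 3) and 153 ± 3.72 in H209 (n = 2), against 31.1 ± 2.07 in MRC5 (n = 3). MYCL made up 93.9% ± 1.70 of that sum in DMS153 and 99.9% ± 0.0361 in H209, and 0.214% ± 0.0259 in MRC5, where MYC made up 99.8%. The antagonists MXI1, MXD1, MXD3, MXD4 and MNT together varied less, with 65.5 ± 3.60 FPKM in DMS153 and 69.6 ± 1.97 in H209, against 50.9 ± 1.21 in MRC5.

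The sum of the family stood at 0.910 ± 0.0999 times that of the antagonists in DMS153, 2.19 ± 0.00857 times in H209 and 0.611 ± 0.0323 times in MRC5. Against MAX it stood at 1.13 ± 0.157, 3.01 ± 0.302 and 0.668 ± 0.0511 in the same order. These ratios are within a library and do not move with its scaling, and no library of one line reached the range of another. The sums themselves do move. The antagonist sum was higher in both carcinoma lines than in MRC5 as deposited, but with median ratio scaling it is 55.0 in DMS153 and 53.7 in H209 against 66.5 in MRC5, and with TPM scaling 79.2 in DMS153 and 132 in H209 against 83.3 in MRC5. Sums were not tested, and RNA per length says nothing of protein.

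**Figure D3:**
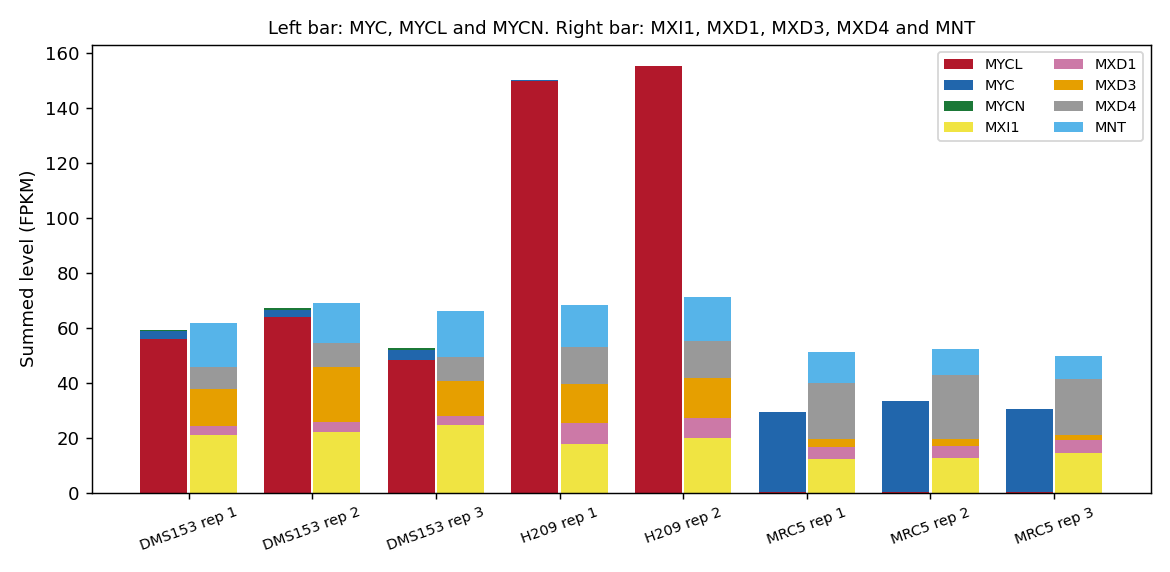
Summed level in FPKM (vertical axis, from 0) in each RNA library, with MYC, MYCL and MYCN stacked in the left bar and MXI1, MXD1, MXD3, MXD4 and MNT in the right bar. The left bar is MYCL in the carcinoma lines and MYC in MRC5, and it stands far above the right bar in H209 alone, at 149.95 and 155.2 FPKM.

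Genes with patterns like those of MYC and MYCL were sought among 12106 genes by the Euclidean distance between log2(FPKM + 1) values, each centred on its own mean over the 8 libraries. The 5 nearest to MYC were LIF at 0.285, NQO1 at 0.593, ICAM1 at 0.6003, CTSZ at 0.607 and ANTXR2 at 0.625, where the median gene lay at 6.19. LIF, a cytokine of the interleukin 6 family, averaged 3.42 FPKM in DMS153 and 0.311 in H209, against 33.5 in MRC5, where MYC averaged 2.85, 0.108 and 31.1 FPKM in the same order. The 5 nearest to MYCL were PRAME at 0.457, CRIP1 at 0.673, KCNA1 at 0.722, ELAVL3 at 0.761 and TAGLN3 at 0.897, with a median of 8.31. PRAME, a tumour antigen normally expressed in testis, had 63.9 FPKM in DMS153 and 145 in H209 and was listed at a mean of 0 in MRC5. The 8 libraries come from 3 lines, so such nearness describes little more than 3 means.

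Around the MYC family genes, domains were called from 1 Hi-C library per line, so they are described without a test. Coordinates are given in hg19 as deposited, on a grid of 20 kb. The MYC domain began at 128740000 on chromosome 8 in all 3 lines, 7.68 kb before the start of the gene. It ended at 129679998 in DMS153 and at 130739998 in both H209 and MRC5, so it was 940 kb long in DMS153 and 2000 kb long in H209 and MRC5. In DMS153 a second domain ran on from 129680000 to 130759998. Domains of at least 940 kb made up 5.73% of the 5023 in DMS153, 12.1% of the 3987 in H209 and 12.0% of the 3701 in MRC5. The median domain of the whole list was 240 kb long in DMS153 and 300 kb in both H209 and MRC5. Those that reached 2 Mb numbered 8 in DMS153, 23 in H209 and 19 in MRC5. Whether 2 Mb was the longest domain the calling allowed was not tested. Among genes with a known strand, 26.6% of starts in DMS153, 23.3% in H209 and 21.8% in MRC5 lay within 20 kb of a domain end.

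PVT1, the long noncoding RNA gene beside MYC, shared its domain in all 3 lines. It had 1.81, 1.72 and 0.778 FPKM in the DMS153 libraries, 0.1505 and 0.00033 in the H209 libraries, and 15.2, 15.3 and 14.2 in the MRC5 libraries. The order of the lines was that of MYC, with no overlap. PVT1 fell by 2.74 ± 0.16 log2 units in DMS153 (limma adjusted p = 2.28e-07) relative to MRC5 and fell by 3.89 ± 0.18 in H209 (adjusted p = 5.41e-08), and was 1.15 ± 0.18 higher in DMS153 than in H209 (adjusted p = 0.000397). Of the other listed neighbours in the domain, TMEM75 stayed at or under 0.0424 FPKM, and MIR1205, MIR1207 and MIR1208 were listed at 0 in all 8 libraries. RNU1-106P, a small nuclear RNA pseudogene in the domain, reached 6.63 FPKM in MRC5 replicate 3 and was not called in any comparison. Of 14 listed genes around MYC, within the domain or not, 2 were tested, PVT1 and FAM84B, and FAM84B, outside the domain, was higher by 3.73 ± 0.09 in DMS153 and 4.55 ± 0.10 in H209 than in MRC5 (limma adjusted p = 5.21e-10 and 4.83e-10). MYC and PVT1 were lower in H209 and in DMS153 than in MRC5. Their domain had the same listed ends in H209 as in MRC5, at 2000 kb in each, and was shorter in DMS153. With a shared start, a longest allowed length would give the same far end, which was not tested. A link between the domain ends and these levels was not tested.

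MYCL lay in a domain of 100 kb in both carcinoma lines, from 40280000 to 40379998 on chromosome 1, and in one of 260 kb in MRC5, from 40260000 to 40519998. The nearest end was 12.07 kb from the start of MYCL in DMS153 and H209, and 107.9 kb in MRC5. In DMS153 the next domain, from 40380000 to 40519998, covered the rest of the MRC5 domain on that side, while in H209 no domain was listed there before 40520000. Within 40 kb the carcinoma domains shared both ends with each other and 1 end with MRC5, and the same held within 20 kb and within 80 kb. Domains of at most 100 kb made up 13.2% of those in DMS153, 9.66% in H209 and 7.94% in MRC5.

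TRIT1, a transfer RNA modifying enzyme gene, lay beside MYCL in the domain of every line. It had 64.0, 73.6 and 66.8 FPKM in the DMS153 libraries, 184 and 192 in the H209 libraries, and 7.54, 7.96 and 8.63 in the MRC5 libraries, the same order of lines as MYCL and no overlap. It rose by 2.93 ± 0.07 log2 units in DMS153 (limma adjusted p = 6.16e-10) and by 4.39 ± 0.08 in H209 (adjusted p = 1.79e-10) relative to MRC5, and DMS153 was lower than H209 at -1.45 ± 0.08 (adjusted p = 5.07e-07). MFSD2A, a lipid transporter gene that lies outside the 100 kb domain but inside that of MRC5, averaged 45.8 ± 1.61 FPKM in DMS153 and 43.5 ± 1.49 in H209, against 1.52 ± 0.0604 in MRC5. It rose by 4.21 ± 0.06 in DMS153 (limma adjusted p = 2.23e-11) and by 4.14 ± 0.07 in H209 (adjusted p = 9.14e-11), with a difference of 0.07 ± 0.07 between DMS153 and H209 (adjusted p = 0.363). All 5 tested genes of the MRC5 domain were called higher in both carcinoma lines, 3 of them inside the 100 kb domain and 2 outside it, counting MYCL itself and 2 clone-named genes that overlap MYCL and MFSD2A. Over a wider neighbourhood of 23 listed genes around MYCL, 14 of 21 tested were called in DMS153 and 16 in H209, all higher than in MRC5. Of all genes tested, 34.0% were called higher in DMS153 and 33.0% in H209, relative to MRC5. The relative medians of the neighbourhood were 1.28 and 1.27. In DMS153 against H209, 1 was higher and 3 lower, beside 13.8% higher and 13.4% lower of all genes. The neighbourhood counts were not repeated under other scalings. The number of copies of this region was not measured in the files used here.

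MYCN lay inside a domain in H209 only, from 15760000 to 16719998 on chromosome 2, 960 kb long. In DMS153 it fell in a gap of 700 kb between domains, and the domain before it, from 15760000, ended at 16079998, 0.688 kb from the start of MYCN. In MRC5 the gap was 940 kb and the nearest end 320.7 kb away. The start of 53.1% of genes in DMS153, 52.0% in H209 and 50.1% in MRC5 lay inside a domain, so a place outside is common. Of 8 listed neighbours of MYCN, 3 were tested, and FAM49A was the one called. Its log2 fold change was -2.27 in H209 against MRC5 and 2.58 in DMS153 against H209. Of all genes tested, 14.9% were called lower in H209 than in MRC5 and 13.8% higher in DMS153 than in H209.

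**Figure D4:**
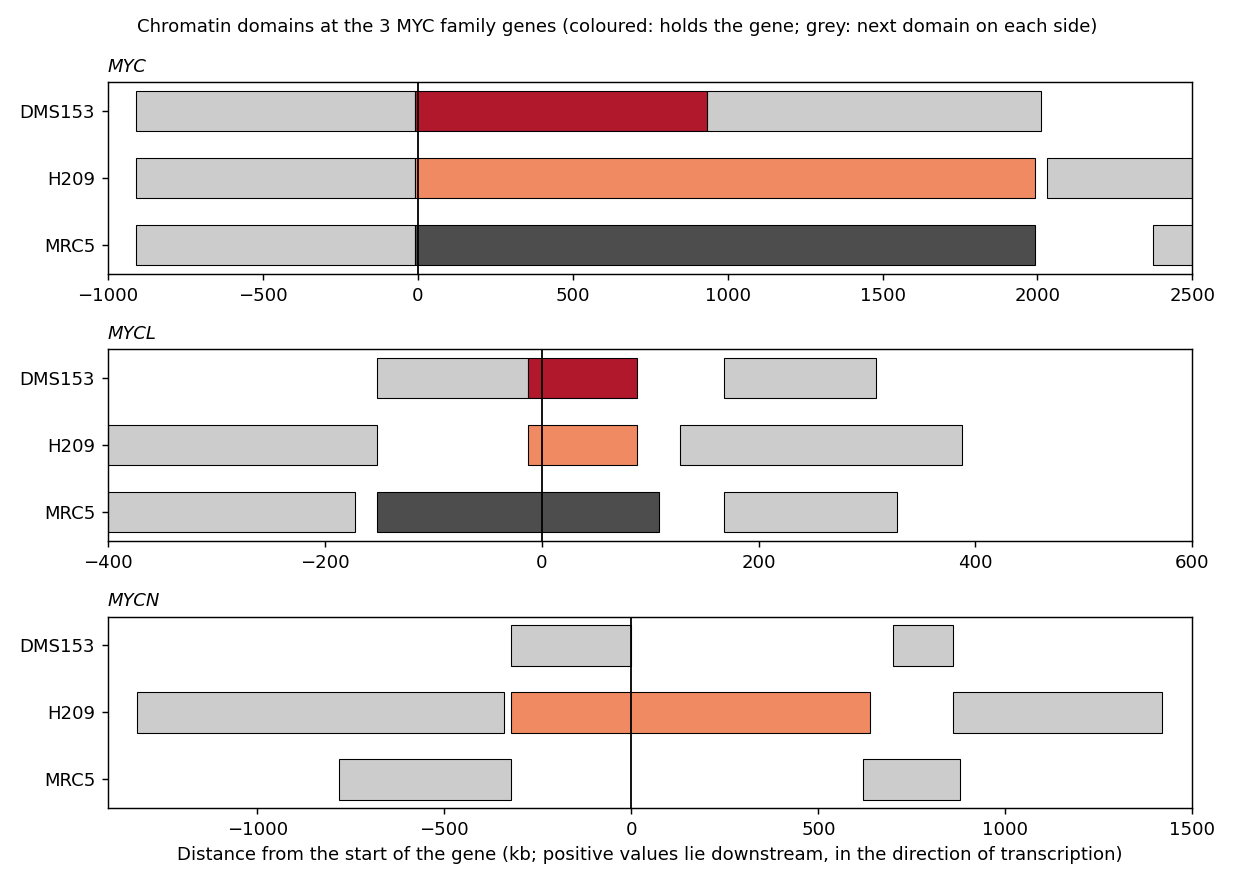
Chromatin domains around MYC, MYCL and MYCN in DMS153, H209 and MRC5, by distance in kb from the start of the gene (horizontal axis, positive in the direction of transcription). The coloured bar is the domain that holds the gene and grey bars are the next domains. The MYC domain is shorter in DMS153, at 940 kb, and the MYCL domain is shorter in both carcinoma lines, at 100 kb, than in MRC5.

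Genes around the network are described by how many were called, beside 50.4% of all genes in DMS153 against MRC5 (34.0% higher, 16.4% lower) and 47.9% in H209 against MRC5 (33.0% higher, 14.9% lower). In the branch of MLX, a partner of MNT, MXD1 and MXD4 that serves the nutrient sensors MLXIP and MLXIPL, 1 of 3 tested genes was called higher in DMS153 and 2 in H209, relative to MRC5, with medians of 0.47 and 1.07 relative to all genes. MLXIP averaged 29.3 ± 2.23 FPKM in DMS153 and 30.2 ± 0.772 in H209, against 9.77 ± 0.209 in MRC5, a rise of 1.49 ± 0.07 and 1.54 ± 0.08 log2 units (limma adjusted p = 3.70e-08 and 8.24e-08), which drops to 0.89 and 0.82 with median ratio scaling. MLXIPL, the carbohydrate-responsive member, averaged 0.929 ± 0.235 FPKM in DMS153 and 6.77 ± 1.90 in H209, a log2 fold change of -1.99 ± 0.15 (limma adjusted p = 3.12e-06) that becomes -0.98, short of a call, with a pseudocount of 5.

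Of 15 corepressor genes that MXD proteins and MNT use, 7 were called in DMS153 and 7 in H209 relative to MRC5, all of them higher, beside 50.4% and 47.9% of all genes called, with relative medians of 0.46 and 0.33. These become 2 higher and 3 lower in DMS153, and 2 and 1 in H209, with median ratio scaling. RBBP4, a histone-binding subunit, averaged 314 ± 15.96 FPKM in DMS153 and 454 ± 5.18 in H209, against 60.4 ± 0.651 in MRC5, a rise of 2.36 ± 0.06 and 2.89 ± 0.07 (limma adjusted p = 5.76e-10 and 5.22e-10). SAP30, a SIN3 subunit, averaged 21.4 ± 3.24 FPKM in DMS153, against 3.43 ± 0.09997 in MRC5, a rise of 2.33 ± 0.10 (adjusted p = 2.86e-08). HDAC3, the deacetylase of the NCOR complexes, averaged 18.4 ± 0.837 FPKM in DMS153 and 47.3 ± 3.21 in H209, a log2 fold change of -1.31 ± 0.07 (adjusted p = 4.47e-07).

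The Polycomb complex that MGA scaffolds had 7 of 14 tested subunit genes called in DMS153 and 8 in H209, all of them higher than in MRC5, beside 50.4% and 47.9% of all genes called, but 1 and 3 with median ratio scaling. The relative medians were 0.56 and 0.59. It shares HDAC1 and HDAC2 with the corepressors. TFDP2, which pairs with E2F6 in this complex, averaged 38.0 ± 5.10 FPKM in DMS153, against 11.5 ± 1.96 in MRC5, a rise of 1.64 ± 0.13 (limma adjusted p = 1.99e-06). CBX1, a heterochromatin protein, averaged 162 ± 6.40 FPKM in H209, against 42.5 ± 1.13 in MRC5, a rise of 1.91 ± 0.08 (adjusted p = 3.21e-08). HDAC1 averaged 124 ± 2.47 FPKM in DMS153 and 165 ± 11.4 in H209, against 44.1 ± 1.47 in MRC5.

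Cofactors that MYC recruits showed 9 of 20 tested genes called in DMS153, all higher than in MRC5, and 8 higher and 1 lower in H209, beside 50.4% and 47.9% of all genes called. With median ratio scaling 4 were higher in DMS153, and 3 higher and 2 lower in H209. Their relative medians were 0.50 and 0.42. DNMT3A, a DNA methyltransferase, averaged 20.5 ± 1.32 FPKM in DMS153 and 14.9 ± 0.179 in H209, against 2.93 ± 0.263 in MRC5, and HCFC1, a chromatin scaffold, averaged 45.6 ± 4.11 in DMS153, against 10.5 ± 2.02 in MRC5. CREBBP, an acetyltransferase that is recurrently inactivated in small cell lung carcinoma, parted the carcinoma lines. It averaged 34.2 ± 2.81 FPKM in DMS153 and 2.89 ± 0.0188 in H209, against 13.0 ± 1.07 in MRC5. It was 3.18 ± 0.09 log2 units higher in DMS153 than in H209 (limma adjusted p = 9.48e-09) and fell by 1.85 ± 0.09 in H209 relative to MRC5 (adjusted p = 7.94e-08).

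Regulators of MYC protein stability had 11 of 23 tested genes higher and 1 lower in DMS153, and the same counts in H209, relative to MRC5, beside 50.4% and 47.9% of all genes called. With median ratio scaling 7 were higher and 3 lower in DMS153, and 6 higher and 2 lower in H209. Their relative medians were 0.40 and 0.49. PLK1, a mitotic kinase that stabilises MYC proteins, averaged 63.2 ± 7.16 FPKM in DMS153 and 49.1 ± 1.501 in H209, against 1.96 ± 0.737 in MRC5, a rise of 4.46 ± 0.16 and 4.11 ± 0.18 (limma adjusted p = 5.56e-09 and 2.73e-08). FBXW7, the ubiquitin ligase subunit that marks MYC for destruction, averaged 87.5 ± 9.73 FPKM in DMS153 and 10.5 ± 0.948 in H209, against 5.54 ± 1.15 in MRC5. It was 2.93 ± 0.15 log2 units higher in DMS153 than in H209 (adjusted p = 3.09e-07). KIAA1524, which encodes the phosphatase inhibitor CIP2A, averaged 25.4 ± 1.09 FPKM in H209, against 2.60 ± 0.237 in MRC5. STUB1 fell by 1.42 ± 0.09 log2 units in DMS153 (adjusted p = 5.01e-07) and PPP2R5A fell by 1.08 ± 0.10 in H209 (adjusted p = 5.05e-06) relative to MRC5, and the second is not called without H209 replicate 2, at -0.9996, nor with a pseudocount of 5, at -0.77.

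Genes that MYC is known to activate moved in both directions. Of 54 tested, 11 were higher and 10 lower in DMS153 than in MRC5, and 16 higher and 4 lower in H209, beside 50.4% and 47.9% of all genes called, with medians of -0.23 and -0.18 relative to all genes. With median ratio scaling the counts in H209 become 6 higher and 14 lower, and after rescaling without small RNA and mitochondrial genes those in DMS153 become 18 higher and 6 lower. The higher ones were led by E2F1, a cell cycle transcription factor, which averaged 31.6 ± 3.97 FPKM in DMS153 and 55.6 ± 5.14 in H209, against 1.89 ± 0.160 in MRC5. CCND2, a cyclin of the G1 phase, led the lower ones, at 0.00203 ± 0.00181 FPKM in DMS153 and 0.0619 ± 0.00439 in H209, against 19.0 ± 0.316 in MRC5. IMPDH2, an enzyme of guanine nucleotide synthesis, averaged 23.0 ± 2.90 FPKM in DMS153 and 32.8 ± 1.595 in H209, against 110.1 ± 3.93 in MRC5, with log2 fold changes of -2.21 ± 0.09 and -1.72 ± 0.10 (limma adjusted p = 1.48e-08 and 2.38e-07). Of 45 of these genes with a promoter window, 31.1% held CACGTG, as did 26.7% of 15 genes that MYC is known to repress and 7.74% of all genes. A gene with several windows counted if any held the box, and per window the shares were 21.9%, 21.7% and 6.35%. The lists are of known targets, and whether that choice favours genes with the box was not tested.

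Between the carcinoma lines 2 of the 54 were higher and 6 lower in DMS153 than in H209, beside 13.8% higher and 13.4% lower of all genes. With TPM scaling 0 were higher and 21 lower, where 6319 of all 19066 genes tested were lower. DKC1, a pseudouridine synthase of ribosomal RNA, averaged 184 ± 13.4 FPKM in DMS153 and 75.9 ± 2.82 in H209, a log2 fold change of 1.26 ± 0.17 (limma adjusted p = 0.000154) that drops to 0.62 with TPM scaling. BOP1, a ribosome assembly factor, averaged 8.92 ± 0.538 FPKM in DMS153 and 34.6 ± 1.35 in H209, a log2 fold change of -1.84 ± 0.08 (adjusted p = 7.94e-08). NME2, a nucleoside diphosphate kinase, averaged 3.66 ± 0.554 FPKM in DMS153 and 22.1 ± 1.85 in H209, but reads of NME2 and its near copy NME1 may be divided between the pair.

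Genes that MYC is known to repress were mostly lower in the carcinoma lines than in MRC5. Of 19 tested, 3 were higher and 14 lower in DMS153 than in MRC5, and 3 higher and 11 lower in H209, with medians of -2.35 and -2.14 relative to all genes, of which 16.4% were lower in DMS153 and 14.9% in H209. In DMS153 against H209, 2 were higher, 4 lower and 13 not called, with a relative median of -0.16. Of all genes, 13.8% were higher and 13.4% lower in that comparison. With TPM scaling 1 of the list was higher and 8 lower, where 6319 of all 19066 genes tested were lower. THBS1, a matrix glycoprotein, averaged 2.00 ± 0.819 FPKM in DMS153 and 1.74 ± 0.204 in H209, against 285 ± 12.6 in MRC5, and PDGFRB, a growth factor receptor of mesenchymal cells, 0.0347 ± 0.0600 and 0.00502 ± 0.00603, against 94.8 ± 5.08. Several listed genes are known from fibroblasts, and the 5 fibroblast markers summed to at most 8.57 FPKM in the carcinoma lines, against at least 6844 in MRC5. The part of cell type in this result was not tested. The higher ones included cell cycle inhibitors. CDKN2C averaged 48.7 ± 4.28 FPKM in DMS153 and 56.1 ± 2.66 in H209, against 0.525 ± 0.216 in MRC5, a rise of 5.03 ± 0.11 and 5.24 ± 0.12 log2 units (limma adjusted p = 2.44e-10 and 6.03e-10), and CDKN1B averaged 72.3 ± 3.07 FPKM in H209, against 14.5 ± 1.28 in MRC5.

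**Figure D5:**
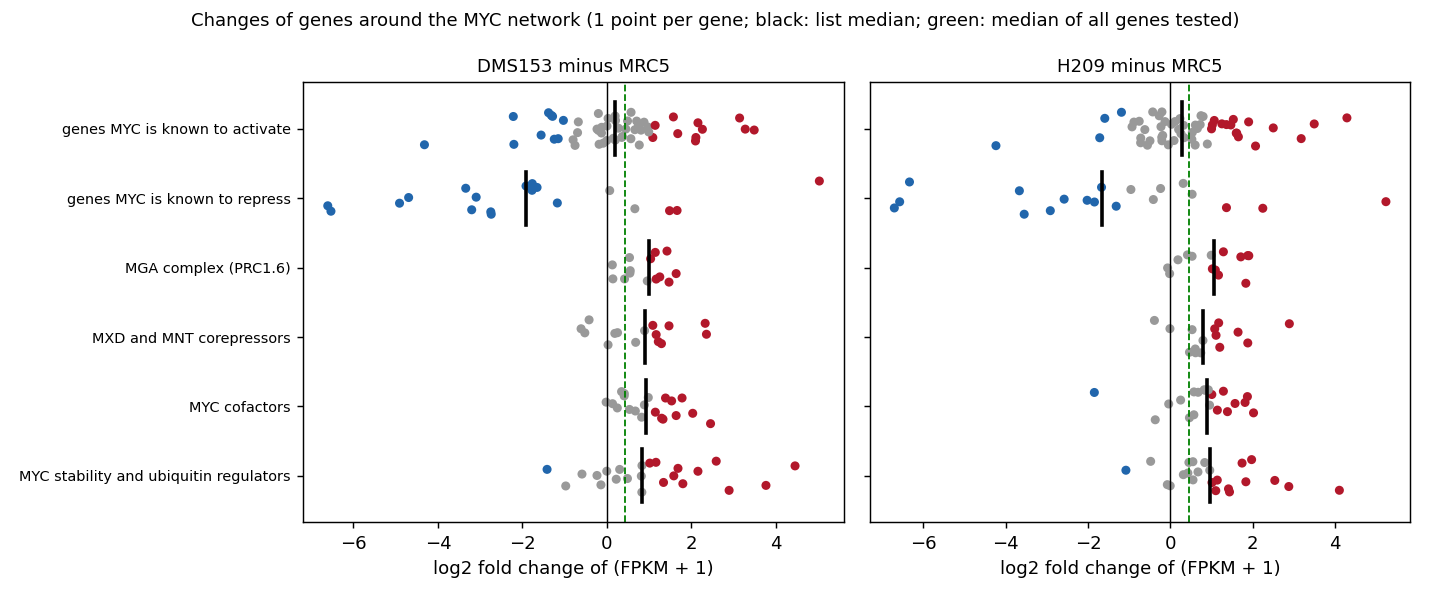
Log2 fold change of FPKM + 1 (horizontal axis) of each tested gene in 6 lists around the network, 1 point per gene, in DMS153 minus MRC5 and H209 minus MRC5. Red points were called higher and blue ones lower, black bars are list medians and the green dashes the median of all genes. The list of genes known to be repressed by MYC has its median at -1.91 and -1.67, left of all others.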

How the data were processed

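RNA libraries were made from 3 cell lines (8 libraries), with 1 Hi-C library per line. The authors deposited FPKM values per gene, with intervals and a status, per the file headers, and the submitters' processing notes name TopHat2 2.1.0, Cufflinks 2.2.0, HOMER 4.8, Bowtie2 and hg19. The RNA titles write DM153 where the cell line label has DMS153, which was followed. The authors deposited domain lists without a header, in which each domain has a score whose making is not stated; it served only to rank domains. No read counts are given, and strand is not given in the sources used here.

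Values were analysed as log2(FPKM + 1) with limma 3.58.1 in R 4.3.3, on the 19066 genes that reached 1 FPKM in 2 or more libraries, in 1 fit of a mean per line over all 8 libraries (5 residual degrees of freedom, eBayes with a trend), 2-sided. Calls needed an adjusted p (Benjamini-Hochberg, all genes) under 0.05 and a log2 fold change of 1 or more in size. The fit was tested on simulated data. Domain overlap, sums and promoter searches used Python 3.11.15, with ends called shared within 40 kb and gene strand and promoter sequence from RefSeq. MYC had no entry used here, so its strand was set to plus, its textbook orientation. Relative depth was the most frequent ratio of low values. Values with a failed status were kept.

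Members and gene lists were chosen with earlier results of these data known. Genes named beside the members are at most the 2 called genes per list, comparison and direction with the largest change, given 5 FPKM or more on average in the higher line, listed neighbours in a family gene's domain, and the 5 genes most like MYC and MYCL. Genes that overlap a member were named besides. Alternatives covered pseudocounts, filters, scalings, the moderation, failed values, the replicate block and each replicate left out.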

Additional observations from a re-analysis of the deposited data

Results flagged for a closer look

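The carcinoma lines differed from each other in their change against the shared MRC5 libraries for both MYC and MYCL, by the direct test of the difference. MYC was 1.79 log2 units higher in DMS153 than in H209 (limma, Benjamini-Hochberg adjusted p = 2.05e-06), higher in 3 of 3 DMS153 libraries than in either H209 library. MYCL stood at -1.44 in DMS153 against H209 (adjusted p = 2.81e-06), lower in 3 of 3 DMS153 libraries. With a pseudocount of 5 the difference for MYC is 0.62 and is not called. The cause of either difference was not tested.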

How the results depend on the processing

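The members' call counts moved with the pseudocount and the scaling. With a pseudocount of 5, 1 member was lower in DMS153 than in MRC5 and 0 were higher in DMS153 than in H209 (limma), because MYC, at 0.62, fell short of the required fold; over all genes 3345 were higher and 2010 lower in DMS153 and 3190 and 1819 in H209, relative to MRC5, and 1126 and 1096 in DMS153 relative to H209. With a pseudocount of 0.1, 2 members were lower in DMS153 than in H209. Median ratio scaling gave 2 members lower in H209 than in MRC5, 4849 genes lower in DMS153, and 3905 higher and 4724 lower in H209. TPM scaling gave 3 members and 6319 genes lower in DMS153 than in H209. Quantile normalization gave 2 members lower in DMS153 than in H209, and 4242 and 4086 genes higher in DMS153 and H209 than in MRC5. Rescaling without small RNA and mitochondrial genes gave 4 members higher and 1 lower in DMS153 than in MRC5. With a pseudocount of 5, median ratio scaling, TPM scaling or quantile normalization, 2 members were higher in DMS153 than in MRC5, not 3. With median ratio scaling, 2 members were higher in H209 than in MRC5, not 3. The cause of these moves was not tested. Sums of MYC, MYCL and MYCN with TPM scaling were 72.1 TPM in DMS153 and 290.1 in H209, against 50.8 in MRC5. With median ratio scaling they were 50.0, 118 and 40.6 in scaled FPKM, in the same order. The antagonist sums were 79.2, 132 and 83.3 with TPM scaling, and 55.0, 53.7 and 66.5 with median ratio scaling. No direction of a called result reversed. Leaving out any 1 replicate kept all member counts, with 3067 to 3167 genes lower in DMS153 than in MRC5.

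Same-numbered replicates correlated at -0.01 to 0.12 in their deviations from the line means, and differently numbered ones at -0.12 to 0.05. With 2 or 3 libraries per line, these values cannot decide whether the numbers pair the libraries. With the replicate block, 6490 genes were higher and 3125 lower in DMS153 and 6292 and 2820 in H209 than in MRC5, 2566 and 2535 in DMS153 against H209, and the member counts were unchanged at 3 and 2, 3 and 1, and 1 and 1. Without genes of failed status MGA drops out, leaving 2 members higher in each carcinoma line than in MRC5. Among domains in the upper part by score, only the MYC and MYCL domains of MRC5 remained, so the other 5 have no value under that alternative. Without counts, low values such as MYC in H209, MYCL in MRC5 and MYCN have deposited intervals that reach 0 in at least 1 library.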
